A study of Homo sapiens with 18 samples.

Results

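Described here are 37 genes of the NRF2 response, the glutathione and thioredoxin systems and NADPH supply, out of 19775 genes that the arrays of this series measure with a probe set of a single symbol. They form a named module, and each gene was read from the probe set with the highest mean signal among those paired with it alone. Of the 37 genes, 35 had such a probe set, and 32 were bright enough to test among 12537 tested genes, which required both arrays of at least 1 clone to lie at or above the array's median. GPX2, GPX3 and GSTM3 lay near the background and were not tested, and PRDX5 and ABCC6 are not analysed here.

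NRF2, the product of NFE2L2, is a transcription factor that KEAP1 holds in the cytosol and presents for ubiquitination. When oxidants or electrophiles modify KEAP1, NRF2 accumulates, pairs with small MAF proteins and binds antioxidant response elements near genes for detoxifying enzymes, glutathione synthesis, thioredoxin recycling and NADPH production. Glutathione and thioredoxin are both returned to their reduced form at the cost of NADPH, which the pentose phosphate pathway, malic enzyme and the wild-type isocitrate dehydrogenases supply, while the mutant isocitrate dehydrogenases consume NADPH to make hydroxyglutarate.

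The arrays came from 9 lines of HCT116, an established human colorectal carcinoma line, with 2 biological replicates of each line. The parental line was wild-type, and 16F8 had been targeted with IDH1 R132C on 1 allele, does not express that allele per the labels and was counted as wild-type at the mRNA level. The mutant lines were heterozygous: 2C11 and 2H1 carried IDH1 R132H, 3A4 carried IDH1 R132C, 8G12 and 17H5 carried IDH2 R140Q, and 47C2 and 45G3 carried IDH2 R172K. All lines were untreated and were harvested after 6 days of growth. Each targeted line is a clone, and R132C is represented by 1 mutant clone, so a comparison of a clone with a reference measures the spread between 2 arrays of a clone and not the spread between clones of a genotype.

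Values are deposited MAS5 signals on a linear scale, on which the median of all values was 13.1. Replicate arrays of a clone correlated at 0.987 to 0.995, and arrays of different clones at 0.950 to 0.991. Spiked poly-A controls were 1.67-fold brighter in 4 arrays (parental replicate 1, 2C11 replicate 1, 16F8 replicate 1 and 8G12 replicate 2). Of 12 markers of a colon epithelial line, 9 were bright enough to test, among them EPCAM, CDH1, KRT8 and CDX2, with summed signals of 10556.5 to 15186.3, whereas VIL1, CDH17 and LGALS4 lay at the background. Of 9 fibroblast markers only COL1A1 passed the brightness filter (summed signals 207.9 to 377.1), and of 7 measured blood cell markers LYZ and HBB did (26.0 to 164.1). LYZ was brightest in the 3 IDH1-mutant clones (55.1 to 142.1, against 8.2 to 47.4 in the other 12 arrays), while PTPRC, CD14, CD3E, MS4A1 and PECAM1 read at most 7 on any array. CDH1 was brightest in parental, with a mean of 1562, and dimmest in 3A4 (452), 2H1 (478) and 47C2 (520).

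Because NRF2 acts through antioxidant response elements, the 250 bases before the RefSeq transcription starts (GRCh38.p14) were searched on both strands for the core of that element, TGACNNNGC. Of 29 genes with such a window, 7 held it (24.1%), against 16.0% of 10237 tested genes and 13.2% of all 27305 genes with a window. They were GCLM, KEAP1, PGD, TXNRD1, GSTP1, ME1 and GPX2, and the copies in GSTP1 and ME1 also contain the AP-1 motif TGACTCA. GSS, HMOX1, PRDX6, GSR, AKR1B10, TXN2, PRDX1 and SOD1 have no window in the table. The windows of 4 genes to which the expression results return are shown 5′ to 3′ on the gene's strand, with each match in capitals; a match describes the letters and is not evidence of binding.

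GCLM, chr1:93909431-93909680, minus strand: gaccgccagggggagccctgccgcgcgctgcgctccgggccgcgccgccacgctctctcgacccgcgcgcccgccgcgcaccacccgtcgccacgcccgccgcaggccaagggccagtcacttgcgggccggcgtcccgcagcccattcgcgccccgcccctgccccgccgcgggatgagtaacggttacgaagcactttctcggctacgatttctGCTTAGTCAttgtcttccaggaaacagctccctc
KEAP1, chr19:10502772-10503021, minus strand: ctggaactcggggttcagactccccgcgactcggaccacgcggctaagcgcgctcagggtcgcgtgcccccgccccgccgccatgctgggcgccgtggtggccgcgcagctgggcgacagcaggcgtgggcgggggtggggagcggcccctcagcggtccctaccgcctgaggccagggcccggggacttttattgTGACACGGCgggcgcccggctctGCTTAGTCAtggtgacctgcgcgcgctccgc
PGD, chr1:10398814-10399063, plus strand: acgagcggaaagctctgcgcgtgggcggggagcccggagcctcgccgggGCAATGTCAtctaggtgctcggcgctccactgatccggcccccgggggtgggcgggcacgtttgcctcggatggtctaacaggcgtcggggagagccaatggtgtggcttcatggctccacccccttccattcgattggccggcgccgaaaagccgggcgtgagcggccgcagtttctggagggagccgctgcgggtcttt
TXNRD1 upstream start, chr12:104215529-104215778, plus strand: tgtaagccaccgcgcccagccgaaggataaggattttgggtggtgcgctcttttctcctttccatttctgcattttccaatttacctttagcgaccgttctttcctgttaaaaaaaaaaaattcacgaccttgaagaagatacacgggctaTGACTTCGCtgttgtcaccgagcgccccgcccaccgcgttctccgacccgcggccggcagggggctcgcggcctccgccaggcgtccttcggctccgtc
TXNRD1 downstream start, chr12:104286782-104287031, plus strand: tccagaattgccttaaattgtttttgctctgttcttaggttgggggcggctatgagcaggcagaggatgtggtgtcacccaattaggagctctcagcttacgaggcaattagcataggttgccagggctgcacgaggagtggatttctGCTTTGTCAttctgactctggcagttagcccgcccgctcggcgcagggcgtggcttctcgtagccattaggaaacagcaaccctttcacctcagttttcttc

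In the window shown, KEAP1 holds 2 matches, on opposite strands, beginning 54 and 31 bases before that start, and GCLM holds 1 at 34 bases. The window of another KEAP1 start, chr19:10503357-10503606, holds 0. NQO1, GCLC, SRXN1 and CAT held none within their windows, which says only that these letters are absent from those 250 bases.

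Changes are differences of log2(signal + 2.2), and a gene was called in a comparison when limma's Benjamini-Hochberg adjusted p over all 12537 genes was below 0.05. Against parental, 14 of the 32 tested genes were called in at least 1 of the 8 other clones (43.8%), compared with 60.3% of all genes tested. Calls were thus no more frequent among these genes than among all genes, and most of them fell on NFE2L2, KEAP1, AKR1B10, HMOX1, GCLC, SRXN1, PGLS and PGD. In 2H1, 10 were called (31.0% of all genes), with 6 higher and 4 lower (14.7% and 16.3%). In 45G3 there were 9 (29.8%), with 3 higher and 6 lower (15.1% and 14.7%). In 3A4 there were 7 (37.2%), with 4 higher and 3 lower (17.6% and 19.6%), and in 47C2 also 7 (28.0%), with 4 higher and 3 lower (14.2% and 13.8%). In 16F8 there were 5 (22.0%), with 1 higher and 4 lower (12.4% and 9.57%), and in 2C11 there were 4 (25.9%), with 3 higher and 1 lower (13.4% and 12.5%). In the IDH2 R140Q clones there were 4 in 8G12 (18.5%), 0 higher and 4 lower (11.4% and 7.05%), and 1 in 17H5 (11.9%), 0 higher and 1 lower (6.89% and 4.97%). As a share of the 32 genes these counts ran from 3.13% in 17H5 to 31.3% in 2H1 (31.0% of all genes), and were under the share of all genes in the other 7 clones. The median log2 change of the 32 genes was 0.15 in 3A4 and -0.14 in 17H5, next to -0.02 and 0.02 over all genes tested, and lay between these in the other clones.

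Against 16F8, the clone that had also been through targeting, AKR1B10, HMOX1, GCLM, NQO1 and CAT were higher in 2H1 and 3A4, and fewer members differed in the other mutant clones. In all, 11 of 32 (34.4%) were called in at least 1 of 7 mutant clones, compared with 38.0% of all genes. In 2H1, 8 were called (16.5% of all genes), with 6 higher and 2 lower (6.44% and 10%). In 3A4 there were 6 (26.3%), with 6 higher and 0 lower (10.3% and 16.0%). In 17H5 there were 3 (8.55%), with 1 higher and 2 lower (4.42% and 4.13%). CAT, as higher, was the single call in 2C11 (2.26%; 0.981% higher and 1.28% lower) and in 47C2 (6.41%; 2.28% higher and 4.13% lower). No member was called in 8G12 (0.63%; 0.526% higher and 0.104% lower) or in 45G3 (2.17%; 0.949% higher and 1.22% lower), where 0 and 1 of the 32 had an unadjusted limma p under 0.05, next to 6.69% and 14.0% of all genes. The median absolute log2 change of the 32 genes was below that of all genes in each of these 15 comparisons, for example 0.20 against 0.27 for 2H1 and 0.10 against 0.22 for 8G12, both against parental. The comparisons with one reference share its 2 arrays, so the changes of different clones against it are not independent.

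**Figure D1:**
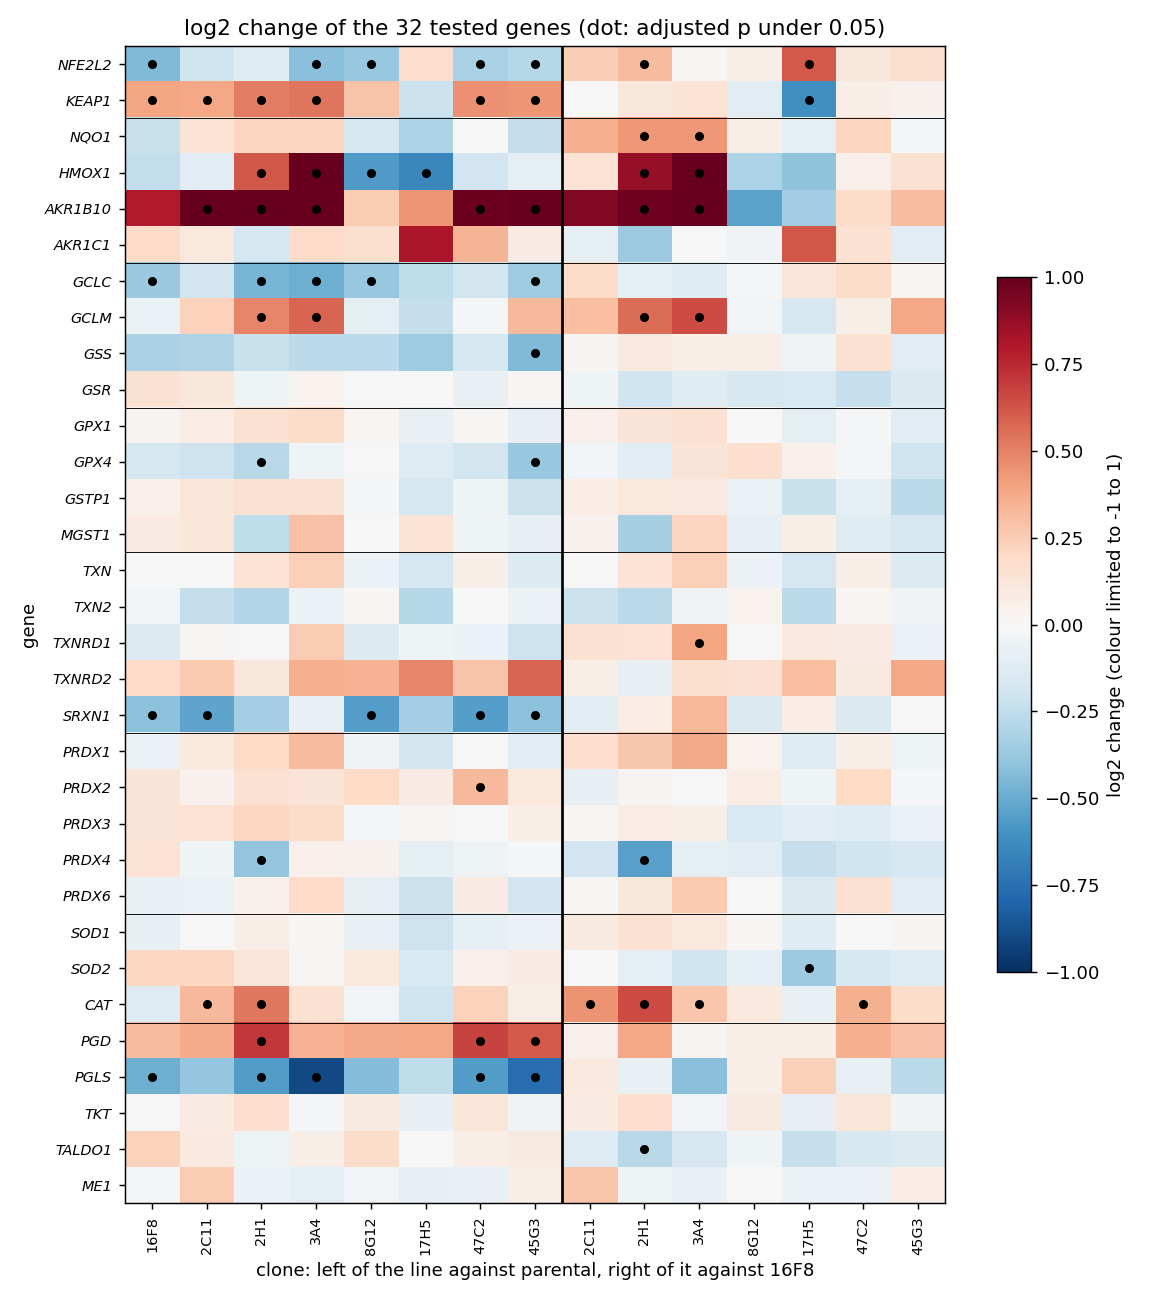
Log2 change of the 32 tested genes, grouped by role (rows), in each clone against parental (left) and against 16F8 (right); colour shows the change, limited to -1 to 1, and a dot marks an adjusted p under 0.05. NFE2L2, GCLC, SRXN1 and PGLS are mostly blue and KEAP1, AKR1B10 and PGD mostly red against parental, and AKR1B10, HMOX1, GCLM and NQO1 are red with dots in 2H1 and 3A4 against 16F8.

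Of the 2 regulators, NFE2L2, which encodes NRF2 itself, was brightest in 17H5 and parental and lower in most other clones. Its signals were 1093.3 and 1024.6 in parental, 1235.6 and 1155 in 17H5, 937.1 and 1013.4 in 2H1, and 857.6 and 995.6 in 2C11. They were 821.1 and 741.5 in 16F8, 802.6 and 778.4 in 3A4, 792.1 and 831.5 in 8G12, 911.8 and 779 in 47C2, and 872.1 and 867.8 in 45G3. Both parental arrays lay above every array of the other clones except 17H5. NFE2L2 fell against parental in 16F8 (-0.44 ± 0.10 SE, adjusted p = 0.00543), 3A4 (-0.42, 0.00407), 8G12 (-0.38, 0.0145), 47C2 (-0.33, 0.0242) and 45G3 (-0.28, 0.0469). Against 16F8, where the reference is itself low, NFE2L2 rose in 17H5 (0.61 ± 0.10, adjusted p = 0.0013) and in 2H1 (0.32, 0.0423). A dimmer probe set of NFE2L2 gave changes of the same sign in 7 of 8 clones, with -0.72 in 3A4 and -0.05 in 47C2, but with the dim probe set of highest variance none of the 7 calls passed and the change in 45G3 was 0.22. Without parental replicate 1 NFE2L2 lost its calls in 8G12 (-0.34), 47C2 (-0.28) and 45G3 (-0.24), and without parental replicate 2 it lost that in 45G3 (-0.33). The call in 45G3 held in 9 of the 26 alternatives run for it, was lost in 16 and reversed in 1. With each array of the compared clone left out in turn, 4 of the 5 calls of NFE2L2 were lost at least once, all but 3A4, and the changes ranged from -0.51 to -0.21. The rise of NFE2L2 in 2H1 against 16F8 did not pass without 16F8 replicate 1 (0.39) or replicate 2 (0.25), nor without 2H1 replicate 1 (0.38) or replicate 2 (0.26).

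KEAP1, the adaptor that marks NRF2 for degradation, ran the other way. Its signals were 556.5 and 512.1 in parental and 497.9 and 422.6 in 17H5, and these 4 arrays were the lowest of the 18. The other arrays lay between 622 and 847.2, with 697.8 and 709.7 in 16F8, 714.1 and 687.2 in 2C11, 830.6 and 697.2 in 2H1, and 777.3 and 773.3 in 3A4. In the other IDH2-mutant clones KEAP1 read 679.4 and 622.8 in 8G12, 708.3 and 762.8 in 47C2, and 622 and 847.2 in 45G3, the last with the widest gap between replicates. KEAP1 rose against parental in 3A4 (0.54 ± 0.13, adjusted p = 0.00389), 2H1 (0.51, 0.00656), 47C2 (0.46, 0.0139), 45G3 (0.44, 0.0168), 16F8 (0.40, 0.0374) and 2C11 (0.39, 0.0349), whereas 8G12 stood at 0.28 (0.15). The rise was thus present in 16F8, which is wild-type at the mRNA level, and against 16F8 KEAP1 was called in 17H5 alone, as lower (-0.62 ± 0.13, 0.00735). Without parental replicate 2, 1 of the 6 calls against parental passed, that in 3A4, and the 6 changes ranged from 0.33 to 0.48. With each array of the compared clone left out in turn, again the call of KEAP1 in 3A4 alone always passed, and the changes ranged from 0.22 to 0.66. Without parental replicate 1, the calls in 2C11 (0.45) and 16F8 (0.46) did not pass, and without 17H5 replicate 2 the fall in 17H5 (-0.50) did not.

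**Figure D2:**
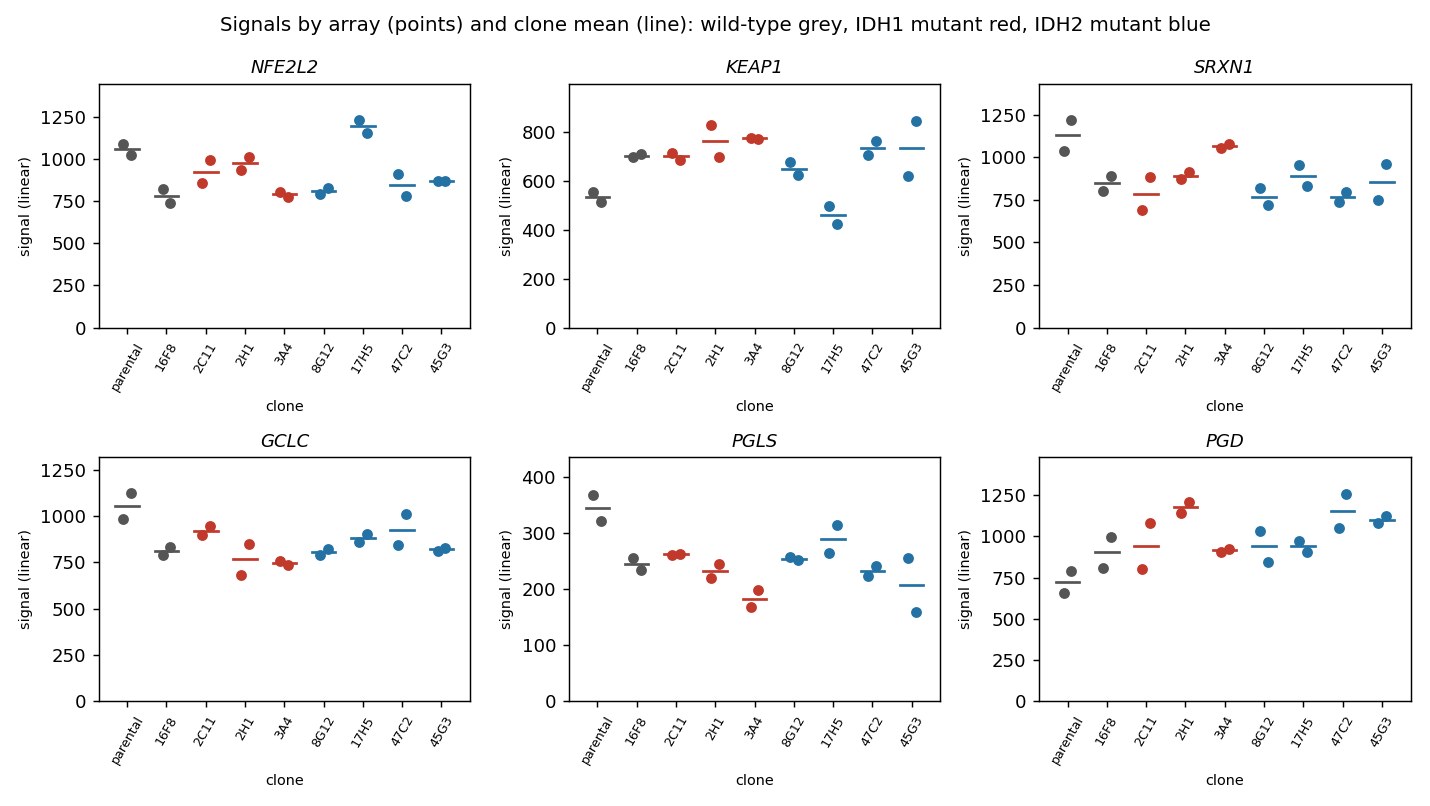
MAS5 signal (linear scale from 0) of 6 genes in each clone; points are the 2 arrays, lines their mean, and colours mark wild-type, IDH1-mutant and IDH2-mutant clones. The parental and 17H5 arrays are the highest for NFE2L2 and the lowest for KEAP1, and for PGLS and PGD both parental arrays lie at the edge of the range.

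Among NRF2-induced reductases and heme oxygenase, AKR1B10, an aldo-keto reductase of reactive aldehydes, showed the largest change of any member. It was dim in parental, at 7.4 and 11.4, and read 15.1 and 20.4 in 16F8. The 3 IDH1-mutant clones were the brightest, with 113.2 and 109 in 3A4, 40.4 and 33.3 in 2H1, and 37.5 and 33.3 in 2C11. The IDH2-mutant clones lay at 6.9 and 18.3 in 8G12, 11.8 and 15 in 17H5, 19.7 and 20.9 in 47C2, and 22.2 and 22.3 in 45G3. No array of an IDH1-mutant clone overlapped with any of the other 12 arrays. LYZ divided the arrays in the same way, with means of 139.7 in 2H1, 60.1 in 3A4 and 56.6 in 2C11, and its part in the result was not tested. AKR1B10 rose against parental in 3A4 (3.31 ± 0.31 SE, adjusted p = 4.16e-07), 2H1 (1.77, 0.000294), 2C11 (1.72, 0.000493), 45G3 (1.10, 0.0121) and 47C2 (0.98, 0.0236). Against 16F8 it rose in 3A4 (2.52 ± 0.31, 1.17e-05) and 2H1 (0.98, 0.037). Because the parental signals are near the background, the size depends on the offset, and with an offset of 50 in place of 2.2 the change in 3A4 against parental was 1.44 and that in 2C11 0.52, both still called. Without parental replicate 1, the calls in 45G3 (0.85) and 47C2 (0.73) did not pass, nor did they without 45G3 replicate 2 (1.09) or without 47C2 replicate 1 (1.02) or replicate 2 (0.94), and the call in 2H1 against 16F8 did not pass without 16F8 replicate 1 (0.78) or replicate 2 (1.17), nor without 2H1 replicate 1 (0.84) or replicate 2 (1.11).

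HMOX1, the heme oxygenase that opens the heme ring and a strongly inducible NRF2 target, rose in 3A4 and 2H1 and fell in both IDH2 R140Q clones. Its signals were 105.9 and 96 in parental, 90.1 and 79.3 in 16F8, 221.2 and 227.3 in 3A4, and 156 and 156.9 in 2H1. In 2C11, the other IDH1 R132H clone, HMOX1 read 104.2 and 83.1, within the wild-type range. It read 65 and 69.8 in 8G12 and 75.2 and 53.3 in 17H5, below all 4 wild-type arrays, and 78.2 to 98.7 over the 4 arrays of 47C2 and 45G3. The change against parental was 1.14 ± 0.17 in 3A4 (adjusted p = 8.13e-05), 0.62 in 2H1 (0.0111), -0.57 in 8G12 (0.0297) and -0.65 in 17H5 (0.0214). Against 16F8 HMOX1 rose by 1.38 in 3A4 (1.74e-05) and 0.87 in 2H1 (0.00219), and the R140Q clones were not called. Leaving out either parental array ended the calls in 8G12 (-0.50 and -0.64) and 17H5 (-0.58 and -0.72), and leaving out parental replicate 2 ended that in 2H1 (0.55). Leaving out 1 array of the compared clone also ended the calls in 2H1 (0.63 and 0.62), 8G12 (-0.52 and -0.62) and, for replicate 2, 17H5 (-0.41). The 2 calls of HMOX1 against 16F8 held under every alternative run.

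NQO1, a quinone reductase and a standard readout of NRF2 activity, differed less. Its signals were 2838.1 and 3048.8 in parental, 2396.4 and 2657.7 in 16F8, 3052 and 3414.9 in 2C11, 3524.1 and 3292.9 in 2H1, and 3119.7 and 3720.2 in 3A4. With this probe set, all 6 arrays of the IDH1-mutant clones lay above all 4 wild-type arrays and above all 8 arrays of the IDH2-mutant clones, whose range was 2112.7 to 2959.8. The margin over parental was small (3052 in 2C11 against 3048.8). With the other bright probe sets of NQO1 the groups overlapped. The second brightest read 2085.1 in 2H1 replicate 2 and 2087.5 in 3A4 replicate 1, against 2258.2 in parental replicate 2. The third read 1991.0 and 2112.8 in 3A4, against 2210.8 and 2243.2 in 47C2. Against parental the changes of NQO1 in the IDH1-mutant clones were 0.13 to 0.21 and none was called. Against 16F8 NQO1 rose in 2H1 (0.43 ± 0.13, adjusted p = 0.0294) and 3A4 (0.43, 0.0195), with 0.36 (0.20) in 2C11. Without 16F8 replicate 1 both calls of NQO1 were lost, with changes of 0.36; the call in 3A4 was also lost without 3A4 replicate 2 (0.31), and that in 2H1 without 2H1 replicate 1 (0.38) or replicate 2 (0.48). AKR1C1, another aldo-keto reductase, was dim (19.8 to 51) and was not called, and its second usable probe set disagreed in sign in 6 of 8 clones; its near-identical family members can share signal with it.

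**Figure D3:**
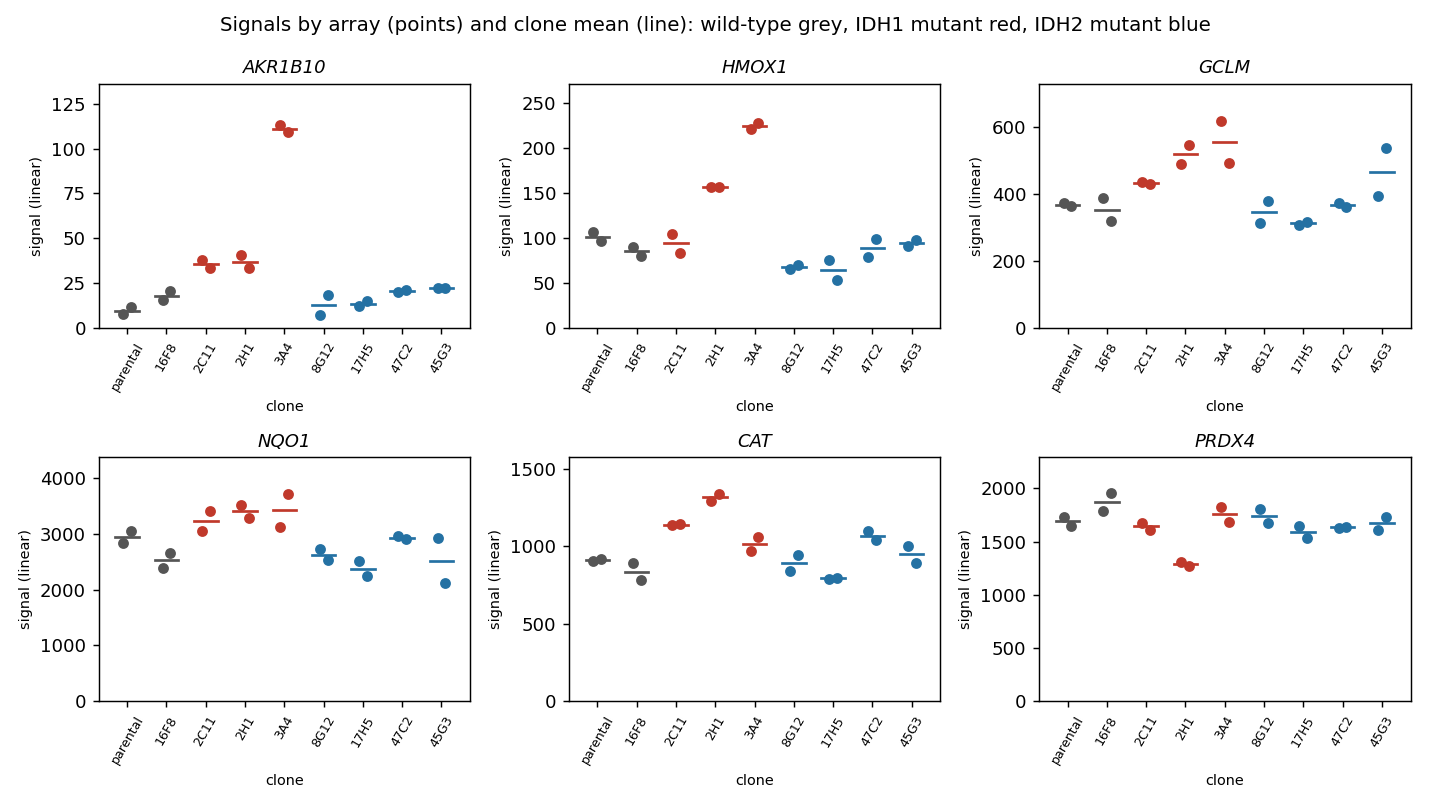
MAS5 signal (linear scale from 0) of 6 genes in each clone; points are the 2 arrays, lines their mean. AKR1B10 reaches 113.2 and HMOX1 227.3 in 3A4, both above every other clone, CAT is highest in 2H1 at 1292.7 and 1342, and PRDX4 is lowest in 2H1.

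The glutathione synthesis genes split by subunit. GCLM, the modifier subunit of glutamate-cysteine ligase, the enzyme that limits glutathione synthesis, rose in 2H1 and 3A4 against either reference. Its signals were 371.7 and 363.7 in parental, 386.1 and 317.8 in 16F8, 490.3 and 546.5 in 2H1, 619 and 492 in 3A4, and 434 and 429.9 in 2C11. In the IDH2-mutant clones GCLM read 307.8 to 378.7 over the arrays of 8G12, 17H5 and 47C2, and 394.2 and 536 in 45G3, whose higher array reached the range of 2H1. The change in 3A4 was 0.58 ± 0.15 against parental (adjusted p = 0.00514) and 0.65 against 16F8 (0.00345), and that in 2H1 was 0.49 (0.0175) and 0.56 (0.0154). A second probe set of GCLM rose by 0.71 in 3A4 and 0.72 in 2H1 against parental, and the dimmest, which had the highest variance, gave 0.34 and 0.82, with 3A4 not called; against 16F8 that probe set gave 0.15 and 0.62, neither of them called. Without 3A4 replicate 1 neither call of GCLM in 3A4 passed (0.42 and 0.49). The calls in 2H1 against parental did not pass without either parental array (0.51 and 0.48), that against 16F8 did not pass without 16F8 replicate 2 (0.42), and neither passed without 2H1 replicate 2 (0.41 and 0.48).

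GCLC, the catalytic subunit of the same enzyme, fell against parental. Its signals were 983.6 and 1123.3 in parental, against 682.4 and 851.8 in 2H1, 756 and 738.1 in 3A4, 790.8 and 821.2 in 8G12, 789.4 and 834.5 in 16F8, and 813.2 and 830.1 in 45G3. The arrays of 2C11, 17H5 and 47C2 lay between 845.3 and 1009.2, so that 1 array of 47C2 exceeded the lower parental one. GCLC was called lower in 3A4 (-0.49 ± 0.11, adjusted p = 0.00249), 2H1 (-0.46, 0.00461), 8G12 (-0.38, 0.0238), 16F8 (-0.37, 0.0247) and 45G3 (-0.35, 0.0244), and was not called in any clone against 16F8, where the changes ran from -0.12 to 0.19. A second probe set was negative in 8 of 8 clones, from -0.49 in 3A4 to -0.06 in 17H5. Without parental replicate 2 the calls other than that in 3A4 did not pass, and the 5 changes ranged from -0.40 to -0.26; the same 4 calls were lost at least once when each array of the compared clone was left out (-0.62 to -0.30). GCLM and GCLC therefore moved in opposite directions in 2H1 and 3A4 against parental.

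GSS, which adds glycine in the second step of glutathione synthesis, was negative against parental in 8 of 8 clones (-0.44 to -0.17) and called only in 45G3 (-0.44 ± 0.13, adjusted p = 0.0192), a call that did not pass without parental replicate 1 or 45G3 replicate 1 (both -0.34). GSR, the reductase that returns glutathione to its reduced form with NADPH, ranged from 1391.8 to 1914.7 over the 18 arrays and was not called against either reference.

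Glutathione peroxidases and transferases changed little. GPX4, which reduces lipid hydroperoxides in membranes, was the sole member of this group called, with 733.1 and 693.6 in parental, 571.5 and 527.8 in 45G3, and 634.3 and 543.9 in 2H1. Both arrays of 45G3 and of 2H1 lay below both parental arrays. The change was -0.38 ± 0.10 in 45G3 (adjusted p = 0.0117) and -0.28 in 2H1 (0.05), the latter at the threshold and lost in 20 of the 26 alternatives run for it. Without parental replicate 1 the call in 45G3 (-0.34) did not pass, and without 45G3 replicate 2 (-0.32) it did not either. GPX1, the cytosolic glutathione peroxidase (1441 to 1973.4), GSTP1, a transferase that conjugates electrophiles to glutathione (2194.1 to 3326.2), and MGST1, its microsomal counterpart (1000.6 to 1732.7), were not called in any clone. GPX2 read 0.1 to 5.4, GPX3 0.1 to 6.3 and GSTM3 1.5 to 7.6, all under the lowest array median of 12.3.

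In the thioredoxin system SRXN1, the sulfiredoxin that repairs overoxidized peroxiredoxins, fell against parental. Its signals were 1038.1 and 1218.8 in parental and 1056.7 and 1080.4 in 3A4, and the other 14 arrays lay between 689.5 and 959.1. These included 804.5 and 891.1 in 16F8, 869.6 and 910.5 in 2H1, 819.8 and 716.6 in 8G12, 953 and 830 in 17H5, 737.6 and 795.5 in 47C2, and 748.9 and 959.1 in 45G3. SRXN1 was called lower in 47C2 (-0.55 ± 0.14, adjusted p = 0.00562), 8G12 (-0.55, 0.00847), 2C11 (-0.53, 0.00832), 16F8 (-0.41, 0.039) and 45G3 (-0.41, 0.0313), and in none against 16F8. Without parental replicate 2, the brightest array, none of the 5 calls passed, and the changes ranged from -0.44 to -0.29. Each of the 5 was also lost when 1 of the arrays of its own clone was left out (-0.70 to -0.23). The brighter arrays of SRXN1 thus belonged to 1 wild-type and 1 IDH1-mutant clone.

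TXNRD1, the selenoprotein that reduces thioredoxin with NADPH in the cytosol, was highest in 3A4, at 3391.4 and 3857.5, against 2823.5 and 3266.5 in parental and 2445.2 and 3109.2 in 16F8. It was called only in 3A4 against 16F8 (0.39 ± 0.12, adjusted p = 0.026), where it did not pass without 16F8 replicate 1 (0.22) or 3A4 replicate 2 (0.30). TXN, thioredoxin itself, ranged from 2660.6 to 3925, with its brightest array in 3A4, and was not called. The mitochondrial TXN2 (553.6 to 859.1) and TXNRD2 (26.7 to 55.7) were not called, although TXNRD2 was positive against parental in 8 of 8 clones (0.11 to 0.58).

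Of the peroxiredoxins, which reduce peroxides with electrons from thioredoxin, PRDX4, the member of the endoplasmic reticulum, fell in 2H1 alone. Its signals were 1306.7 and 1268.2 in 2H1, against 1732.4 and 1648.4 in parental and 1789.8 and 1958.1 in 16F8. The arrays of the other 6 mutant clones lay between 1538.2 and 1824, so that no array overlapped with those of 2H1. The change was -0.39 ± 0.09 against parental (adjusted p = 0.00241) and -0.54 against 16F8 (0.000365), and both calls held under every alternative run. PRDX2, a cytosolic peroxiredoxin, rose against parental in 47C2 (0.32 ± 0.09, 0.00908), with signals of 1780.2 and 1830.3 against 1459.3 and 1423.2. Its dimmer probe sets pointed the other way in 47C2, and the 1 of highest variance gave -0.34; the call also did not pass without parental replicate 2 (0.31) or 47C2 replicate 2 (0.30). PRDX1 (2926.9 to 4618.2), PRDX3 (2050.2 to 2700.9) and PRDX6 (1946.7 to 2870.9) were not called in any clone.

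CAT, the peroxisomal catalase that splits hydrogen peroxide without NADPH as a substrate, rose in both IDH1 R132H clones. Its signals were 907.5 and 918 in parental, 894.1 and 781.1 in 16F8, 1292.7 and 1342 in 2H1, and 1137.5 and 1145.6 in 2C11. The arrays of 47C2, at 1099.2 and 1041, and of 3A4, at 970.2 and 1058.4, lay between those and the wild-type arrays, and 17H5 was lowest among the mutants at 789.7 and 797.9. The change against parental was 0.53 ± 0.10 in 2H1 (adjusted p = 0.000482) and 0.32 in 2C11 (0.02). Against 16F8 CAT rose in 2H1 (0.65, 0.000146), 2C11 (0.45, 0.0172), 47C2 (0.36, 0.0349) and 3A4 (0.28, 0.0421). The calls in 2H1 held under every alternative run. Against parental the call in 2C11 did not pass without either parental array (0.31 and 0.33) or either of its own (0.33 and 0.32). Without 16F8 replicate 2, the calls in 2C11 (0.35), 47C2 (0.26) and 3A4 (0.18) did not pass, and each of these was also lost without either array of its own clone (0.21 to 0.45). Of the superoxide dismutases, the mitochondrial SOD2 fell in 17H5 against 16F8, from 2691.9 and 2812.6 to 2071.2 and 2208.2 (-0.36 ± 0.09, 0.0136), a call that did not pass without 16F8 replicate 2 (-0.33) or either 17H5 array (-0.32 and -0.41), and the cytosolic SOD1 (2896.4 to 3882.8) was not called.

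Within NADPH supply, PGLS and PGD, which catalyse consecutive steps of the oxidative pentose phosphate pathway, moved in opposite directions against parental. PGLS, which hydrolyses the lactone made by glucose-6-phosphate dehydrogenase, read 368.4 and 321.4 in parental, 255.9 and 233.8 in 16F8, 168.9 and 198.1 in 3A4, 220.4 and 244.9 in 2H1, and 261.5 and 263.6 in 2C11. In the IDH2-mutant clones PGLS read 257.7 and 251.9 in 8G12, 264.6 and 315.1 in 17H5, 223.2 and 242 in 47C2, and 256.4 and 159.9 in 45G3. Both parental arrays lay above the other 16. PGLS fell in 3A4 (-0.90 ± 0.17, adjusted p = 0.000519), 45G3 (-0.76, 0.0029), 2H1 (-0.56, 0.0176), 47C2 (-0.56, 0.0197) and 16F8 (-0.49, 0.0478), and 2 other probe sets of PGLS that passed the brightness filter were also negative in 8 of 8 clones. The call in 16F8 was lost in 19 of the 25 alternatives run for it. Without parental replicate 1, the calls in 2H1, 47C2 (both -0.46) and 16F8 (-0.39) did not pass, without parental replicate 2 that in 16F8 (-0.59) did not, and without 45G3 replicate 2 the change in 45G3 was -0.42 and did not pass. The calls of PGLS in 2H1, 16F8 and 47C2 were likewise lost without 1 array of their own clone (-0.62 to -0.42). Against 16F8 PGLS was not called in any clone, with -0.41 (0.081) in 3A4.

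PGD, which makes NADPH while decarboxylating 6-phosphogluconate, read 656.7 and 788.7 in parental and 808.8 and 996.7 in 16F8. Its brightest arrays were in 2H1 (1142.3 and 1211.2), 47C2 (1048.9 and 1256.3) and 45G3 (1080.5 and 1121.9). The other clones read 800.2 and 1083.8 in 2C11, 908.2 and 925 in 3A4, 1034.4 and 847.4 in 8G12, and 974.3 and 907.7 in 17H5, so that both parental arrays were the lowest of the 18. PGD rose in 2H1 (0.71 ± 0.15, adjusted p = 0.0013), 47C2 (0.67, 0.00233) and 45G3 (0.61, 0.00442), and the change was positive in 8 of 8 clones, 16F8 included (0.32, 0.13). Against 16F8 it was positive in 7 of 7 (0.03 to 0.39) and not called. Without parental replicate 1 the call in 45G3 (0.48) did not pass. TALDO1, the transaldolase of the non-oxidative branch, fell in 2H1 against 16F8 (1148.3 and 1073.7 against 1360.6 and 1336.8; -0.28 ± 0.08, 0.029), a call that did not pass without 16F8 replicate 1 (-0.27) or replicate 2 (-0.29), or without either 2H1 array (-0.33 and -0.23). TKT, its partner transketolase (2355.9 to 3279.5), and ME1, the cytosolic malic enzyme (496.1 to 676.2), were not called.

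With the clone as the replicate, no member passed the test in any of the 4 genotype comparisons, each fitted with limma on the 9 clone means. Of all genes, 0% were called for mutant, IDH1-mutant or IDH2-mutant against wild-type clones, and 0.00798% (1 gene) for IDH1-mutant against IDH2-mutant clones. At an unadjusted p under 0.05 there was 1 member of 32 (PGD) for mutant against wild-type, next to 6.89% of all genes at that p, and 1 (PGD) for IDH2-mutant against wild-type, next to 5.05%. For IDH1-mutant against wild-type there were 5 (AKR1B10, CAT, GCLM, NQO1 and PRDX1), next to 15.3% of all genes, a share near that of the members. For IDH1-mutant against IDH2-mutant clones there were 12, or 37.5% of the 32, next to 13.2% of all genes. Of the members, 23 are among the brightest 3134 tested genes, and the share at that p is not given for bright genes alone. Nor is it given after quantile normalization, so whether the members exceed genes of their own brightness was not tested. NQO1 differed by 0.37 ± 0.08 SE (adjusted p = 0.168), PRDX1 by 0.29 ± 0.06 (0.168), GSTP1 by 0.26 ± 0.06 (0.185), AKR1B10 by 1.57 ± 0.40 (0.203), HMOX1 by 0.93 ± 0.26 (0.236) and GCLM by 0.44 ± 0.14 (0.267), each higher in the IDH1-mutant clones. When the 18 arrays were fitted with a random effect of clone and the replicate number as a block, AKR1B10 alone of the members passed, in the 2 comparisons of IDH1-mutant clones. That fit used 1 correlation between arrays of a clone for all genes, and the share of all genes that passed in it is not given here.

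The means of all 3 IDH1-mutant clones lay above those of all 4 IDH2-mutant clones for 8 of the 32 genes (25%), against 5.97% of all genes and 13.3% of the brightest 25% of genes, to which 23 members belong. The 8 were AKR1B10, NQO1, TXNRD1, GSTP1, GPX1, SOD1, PRDX1 and PRDX3, and the reverse order was found for 0 (6.79% of all genes). After quantile normalization of the arrays 3 of the 8 remained, AKR1B10, GPX1 and NQO1 (4.56% of all genes). Without 2C11 replicate 2 the count was 5 (4.74% of all genes), while it was 9 (5.42%) when the 4 arrays with bright poly-A controls were left out. The position of both wild-type clones relative to these groups was less clear. The 3 IDH1-mutant means exceeded both wild-type means for 12 genes (14.0% of all genes), namely AKR1B10, CAT, GCLM, GPX1, GSTP1, NQO1, PGD, PRDX1, PRDX3, SOD1, TXN and TXNRD1, and below them for TXN2 (16.8%). The count of 12 fell to 7 without 2C11 replicate 2 (12.3% of all genes) or without 16F8 replicate 1 (12.8%), and to 8 without parental replicate 1 (13.2%). It fell to 6 (13.2% of all genes) when each clone was read from its arrays with low poly-A controls. The 4 IDH2-mutant means exceeded both wild-type means for PGD and TXNRD2 (6.39% of all genes) and below for GSTP1 (6.13%). PGD alone was higher in each of the 7 mutant clones than in either wild-type clone, and no member was lower in each (2.94% of all genes). That is 3.125% of the 32 members, close to the 2.89% of all genes. The smallest change of PGD against 16F8 was 0.03. PGD lost this place without 2C11 replicate 2, without 16F8 replicate 1 and without 8G12 replicate 1. It also lost it once every array whose poly-A controls were bright had been dropped.

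**Figure D4:**
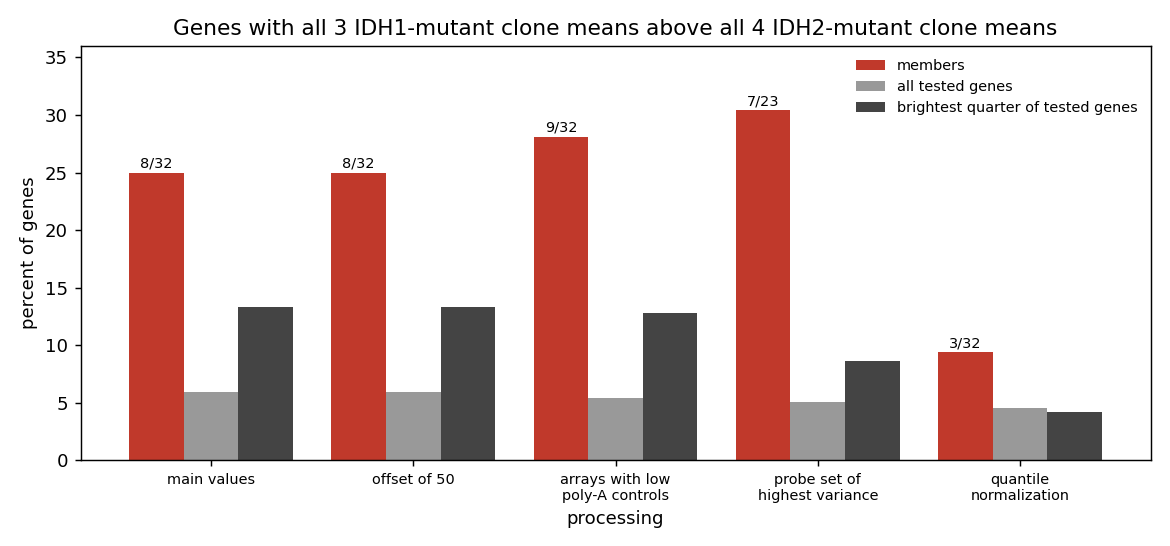
Percent of genes (y axis) for which all 3 IDH1-mutant clone means lie above all 4 IDH2-mutant clone means, under 5 ways of processing (x axis), for the members, all tested genes and the brightest 25% of tested genes; labels give members counted over members tested. The members' share is 25% with the main values and falls to 3 of 32 after quantile normalization. The shares there are 4.56% of all genes and 4.24% of the brightest 25%, and whether 3 genes exceed them was not tested.

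Other genes of these pathways were listed beside the 37, and those named here have the most calls against parental in their list, with ties broken by the largest change. Of 26 tested genes of glutathione transport, turnover and transfer, 13 (50%) were called in 3A4 against parental (6 higher, 7 lower), next to 37.2% of all genes. In 2H1 there were 11 (42.3%, 2 higher and 9 lower), next to 31.0%, and in 17H5 there were 4 (15.4%, 2 in each direction), next to 11.9%. The other clones lay nearer to the share of all genes. There were 7 in 2C11 (26.9%, next to 25.9%), 6 in 16F8 (23.1%, next to 22.0%) and 6 in 8G12 (23.1%, next to 18.5%). In 47C2 and 45G3 there were 8 each (30.8%, next to 28.0% and 29.8%). SLC7A11, the cystine importer that feeds glutathione synthesis, fell against parental in 7 of 8 clones, from a mean signal of 2320 to between 464 in 16F8 and 1392 in 3A4 (log2 changes of -2.32 to -0.74), and 17H5 stood at 1830 (-0.34, adjusted p = 0.086). Against 16F8, in which it was lowest, SLC7A11 rose in 6 of 7 mutant clones, from 0.55 in 2C11 to 1.98 in 17H5, and 45G3 stood at 0.24 (0.42). SLC3A2, its partner subunit, fell against parental in the same 7 clones, by -1.25 in 2C11 to -0.55 in 8G12. CHAC1, which degrades glutathione, fell in 6 clones by -3.22 to -2.45 and was higher in 17H5 (1.19, 0.0087), with a mean signal of 273 in parental, 341 in 8G12 and 621 in 17H5 and 27.8 to 47.7 elsewhere. GLRX, a glutaredoxin, fell in 7 clones (-0.59 to -0.37) and stood at -0.18 (0.15) in 3A4.

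Of 28 tested other genes of the NRF2 pathway, between 8 (28.6%, in 2C11 and 17H5) and 15 (53.6%, in 45G3) were called against parental, in both directions in every clone, next to 25.9%, 11.9% and 29.8% of all genes in these 3 clones. MSRB1, a methionine sulfoxide reductase, rose in 8 of 8 clones (0.58 to 1.12) and SEPHS2, which makes the selenium donor of selenoproteins, fell in 8 of 8 (-0.90 to -0.46). AKR1C3, an aldo-keto reductase, rose in 7 (0.80 to 1.72) with its highest mean of 135.6 in 3A4, and ABCC3, an exporter of conjugates, fell in 7 (-0.98 to -0.58). Of 15 tested other genes of NADPH supply, between 2 (13.3%, in 17H5) and 7 (46.7%, in 47C2) were called against parental, next to 11.9% and 28.0% of all genes. H6PD, the pentose phosphate dehydrogenase of the endoplasmic reticulum, fell in 7 clones (-1.12 to -0.50), and TIGAR, a phosphatase that diverts sugar into the pentose phosphate pathway, rose in 6, most in 3A4 (1.17) and 2H1 (1.04). MTHFD2, a mitochondrial folate enzyme that makes NADH or NADPH, fell in 6 clones by -0.48 to -0.44, and MTHFD1, its cytosolic counterpart, rose in 6 (0.27 to 0.44) and stood at -0.24 in 3A4. Of the targeted genes themselves, IDH1 ranged from 1124 in 16F8 to 2193 in 2H1 and IDH2 from 115.8 in 2H1 to 273.8 in 8G12.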

How the data were processed

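The deposited values were probe set intensities, per the labels made from 18 one-colour Affymetrix arrays of RNA amplified and labelled with biotin, and computed with MAS5 per the submitters' processing notes; its version is not given in the sources used. All arrays had a trimmed mean of 150.0 and were taken as scaled to that level, since the scaling target is not given in the sources used. Signals were taken as log2(signal + 2.2), the offset being the 25th percentile of all values. Of 54675 probe sets, 41091 carried 1 symbol, 1801 several and 11721 none; only the first were used, at 1 probe set a gene (highest mean signal).

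Models were fitted with limma 3.58.1 in R 4.3.3 (lmFit, eBayes with a trend), two-sided, and p-values were adjusted by Benjamini-Hochberg over 12537 genes. Clones were compared on 18 arrays, genotypes on 9 clone means. The code was tested on simulated data. Errors are standard errors. Array number, 2 per clone, limits the precision. The gene members, pathway and marker lists were chosen with earlier results of these data known, and the order of clone means was added to the planned tests. All members may be named; pathway genes were named by the number of clones in which they were called against parental, up to 4 per list. Alternatives covered the offset, filter, normalization, probe set and variance model, a term for bright poly-A controls, blocks, and leaving out each array or clone. Replicate numbers did not pair the arrays: deviations of replicate 1 correlated at -0.352 to 0.383 over 36 pairs of clones. Figures were drawn with matplotlib 3.10.9.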

Additional observations from a re-analysis of the deposited data

Results flagged for a closer look

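Of 64 groups of clone means examined for a member that stood apart, 2 were picked out, and chance picks out about 1 in 20. KEAP1 in 17H5 lay at 8.85 on the log2 scale against 9.35 to 9.60 in the other 6 mutant clones, a gap of 0.665 of the whole range. PRDX4 in 2H1 lay at 10.33 against 10.64 to 10.78 in the other mutant clones, a gap of 0.685 of the range.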

How the results depend on the processing

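Of 66 single calls of a member, 16 held under every alternative and 64 kept their direction; of 1696 recomputed values 1481 kept their call and direction, 213 kept the direction and lost the call, and 2 reversed, both with the probe set of highest variance (PRDX2 in 47C2, -0.34, and NFE2L2 in 45G3, 0.22, against parental). The cause was not tested. Replicate numbers did not pair the arrays, and the replicate block ended 2 of the 66 calls. With the clone as a random block and the replicate block, 1 member passed for IDH1-mutant against wild-type and 1 for IDH1-mutant against IDH2-mutant clones, where the main count was 0. The share of all genes that passed with these blocks is not given here.

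Counts of members called that moved were as follows. The shares of all genes called under these settings are not given here, so whether the members moved more than all genes was not tested. With a term for the arrays with bright poly-A controls there were 7 in 2C11, 9 in 16F8 and 7 in 17H5 against parental, and 5 in 17H5 and 1 in 45G3 against 16F8. With the probe set of highest variance, which tests fewer members, there were 6 in 2H1, 3 in 3A4, 2 in 16F8, 2 in 17H5 and 4 in 47C2 against parental, and 0 in 2C11, 5 in 2H1, 3 in 3A4 and 0 in 47C2 against 16F8. Without the filter there were 2 in 16F8 against parental, and 5 in 2H1 and 0 in 47C2 against 16F8. Without the variance trend there were 2 in 16F8 against parental and 0 in 47C2 against 16F8, and with an offset of 50 there were 2 in 2C11 against 16F8.

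Counts of members whose clone means do not overlap moved after quantile normalization to 2 (mutant above wild-type, 2.66% of all genes). They moved to 4 and 0 for IDH2-mutant above and below wild-type (5.7% and 5.53%), and to 3 and 1 for IDH1-mutant above and below IDH2-mutant (4.56% and 6.06%). With the probe set of highest variance 0 lay above wild-type in mutant clones and 0 in IDH2-mutant clones (3.5% and 6.97%). On arrays with low poly-A controls the counts were 0 for mutant above wild-type (3.2%), and 6 and 0 for IDH1-mutant above and below wild-type (13.2% and 15.7%). There were 1 and 6 for IDH2-mutant above and below wild-type (6.6% and 6.47%). The brightest genes, to which these 6 members belong, showed the last order in 522 of 3134 (16.7%). Whether the members exceed that share was not tested.

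Leaving out 1 array gave 1 to 5 members called in 2C11, 5 to 11 in 2H1, 6 to 9 in 3A4, 0 to 6 in 16F8, 1 to 5 in 8G12, 0 to 1 in 17H5, 2 to 7 in 47C2 and 3 to 9 in 45G3 against parental. Against 16F8 it gave 0 to 1 in 2C11, 3 to 9 in 2H1, 3 to 7 in 3A4, 1 to 3 in 17H5 and 0 to 1 in 47C2. Leaving out 1 array or clone gave 0 to 1 for IDH1-mutant against IDH2-mutant clones. It gave non-overlap counts of 0 to 4 and 0 to 5 (mutant above and below wild-type), 7 to 16 and 0 to 7 (IDH1-mutant), 1 to 5 and 0 to 10 (IDH2-mutant against wild-type), and 5 to 13 and 0 to 1 (IDH1-mutant above and below IDH2-mutant). These ranges are likewise given without the shares of all genes. A clone left with 1 array is assumed to vary like the others. Signals near the background, as for AKR1B10 in parental, limit the size of a log2 change.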
